A study of Mus musculus with 12 samples.

Results

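The 10 chemokine genes of the mouse heart, Ccl2, Ccl6, Ccl7, Ccl8, Ccl9, Cxcl1, Cxcl12, Cxcl14, Cxcl16 and Cx3cl1, were taken by name from a table of 43686 genes and loci, and all 10 were found. RNA of the ventricular wall was compared between 6 WT mice, which carried floxed Sdhaf4 alleles without Cre (Sdhaf4fl/fl), and 6 KO littermates with the same floxed alleles and Ckmm-Cre, all labelled as 2 months old and as C57BL/6 (C57BL/6J in the study's methods). Sdhaf4 encodes an assembly factor of mitochondrial complex II. The Cre is driven by the muscle creatine kinase promoter, so cardiac and skeletal muscle lose the gene while the other cells of the heart keep it. The labels call the mutants Sdhaf4-/-. The study's results give a younger age for the sequenced hearts. Its reporting summary lists male mice for omics, at a younger age or at about the labelled one.

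Chemokines are small secreted proteins that bind G protein-coupled receptors and direct the migration of leukocytes along their concentration gradients. The names follow the spacing of the first cysteines: CC (Ccl), CXC (Cxcl) and CX3C (Cx3cl1). In the heart, resident macrophages, endothelial cells and fibroblasts all make chemokines. Cx3cl1 and Cxcl16 are unusual in being made as membrane proteins that both hold cells in place and, once cut by proteases, act in solution. Cxcl12 is a homeostatic chemokine made by stromal and endothelial cells.

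The libraries held 23747014 to 27159228 counts in WT and 26542930 to 31393393 in KO. CPM below is the read count scaled to a library of fixed size with TMM factors, and log2 fold changes are KO against WT with the SE, from edgeR's quasi-likelihood test over 17155 rows with Benjamini-Hochberg adjustment. A gene was called where its adjusted p was under 0.05. It was past both thresholds where the adjusted p was under 0.005 and the log2 fold change was also beyond 1 in either direction. Sdhaf4 itself averaged 25.2 ± 5.8 CPM (SD, n = 6) in WT and 2.4 ± 0.17 in KO, a log2 fold change of -3.39 (SE 0.159, edgeR adjusted p = 1.95e-10). Markers of atrial muscle summed to 10.8 to 17.4 CPM in WT and 3.1 to 5.07 in KO, against at least 42200 CPM of cardiomyocyte markers in every library. The lower atrial sum was that of Sbk2 (log2 fold change -5.07), whereas Myl4, the other atrial marker tested, was higher (log2 fold change 0.72, edgeR adjusted p = 0.00515).

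Of the 10 chemokines, 2 rose in KO hearts (Cx3cl1 and Ccl8), 2 fell (Cxcl14 and Ccl6), and 6 did not pass the test. Across all rows tested, 25.6% were higher and 25.5% lower at the same threshold, so the 2 and 2 calls lie near the shares for the whole table. Cx3cl1 and Cxcl14 were past both thresholds, where 10.2% of all rows stood. The WT and KO libraries did not overlap in CPM for 2 of the 10, the same pair of genes, against 30.1% of all rows. The median log2 fold change was -0.20 over the 10 chemokines and 0.0022 over all rows.

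**Figure D1:**
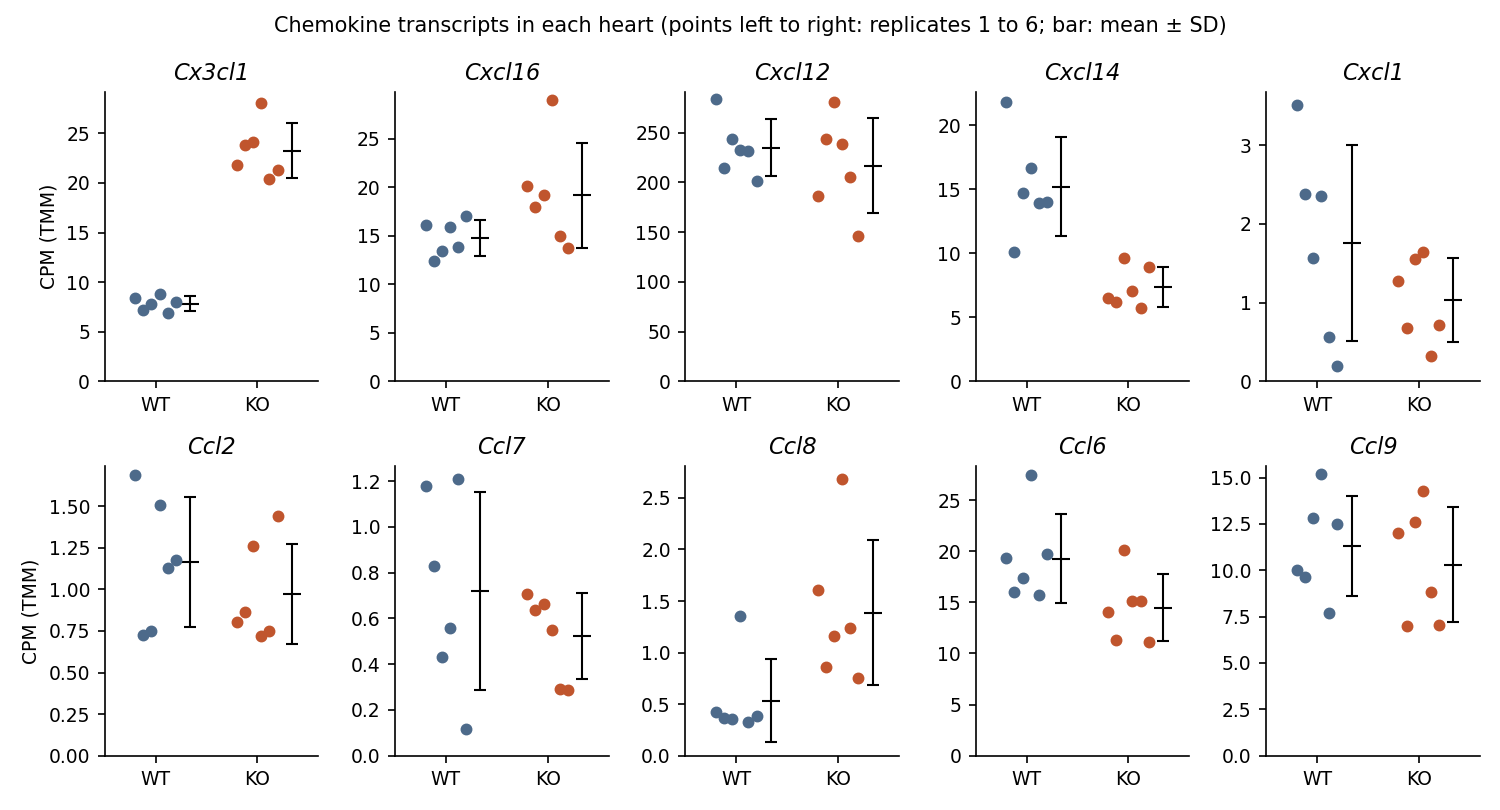
TMM-scaled CPM of each chemokine in each heart, 1 panel per gene with its own axis from 0; points are libraries (blue WT, red KO, replicates 1 to 6 from left to right) and bars the mean ± SD of 6. Only Cx3cl1, with 6.88 to 8.82 CPM in WT and 20.4 to 28.1 in KO, and Cxcl14 separate the groups completely.

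Cx3cl1 (fractalkine, MGP_C57BL6NJ_G0034464, chromosome 8, 99711181 to 99723243, plus strand) is the membrane-bound ligand of Cx3cr1, a receptor of monocytes and macrophages. WT hearts ran from 6.88 through a median of 7.87 to 8.82 CPM, and KO hearts from 20.4 through 22.8 to 28.1 CPM. Every KO library was above every WT library. The rise was 2.97-fold, a log2 fold change of 1.57 (SE 0.09, 95% interval 1.37 to 1.77, edgeR adjusted p = 7.19e-10), resting on 170 to 222 counts per WT library and 590 to 818 per KO library. A two-sided exact permutation test of the 12 libraries gave p = 0.00216, the smallest that 6 against 6 can give. Leaving out each library in turn kept the log2 fold change between 1.51 and 1.61.

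Because fractalkine is characteristic of endothelium, endothelial markers were set beside it. Of 8 such markers, 5 were higher, Tek was lower and 2 did not pass, where 25.6% of all rows were higher and 25.5% lower. Among the higher ones, only Vwf was past both thresholds (log2 fold change 1.08, edgeR adjusted p = 5.67e-06). The log2 fold changes of the rest, Pecam1, Kdr, Emcn and Egfl7, were 0.23 to 0.43. None of the 8 markers was near 0, and their sum was 1490 to 1660 CPM in WT and 1700 to 2030 in KO. Per 1000 CPM of endothelial markers, the median of Cx3cl1 was 4.84 CPM in WT (4.36 to 5.92) and 11.8 in KO (10.3 to 15.2), again without overlap. This ratio, like the other ratios to marker sums below, was computed after the data had been seen. In bulk tissue, more or fewer cells of a type and more or less RNA per cell cannot be told apart.

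The promoter windows of the risen and fallen chemokines are shown because these are the genes whose transcripts differed, together with that of Cxcl1, a classical target of inflammatory transcription factors whose transcript did not pass the test. Each window runs from 250 bases before to 50 bases after the RefSeq start of the gene on GRCm38.p6, 5′ to 3′ on the gene's strand, and capitals mark a match to a searched motif. Windows were found for 7 of the 10 chemokines and those of Cx3cl1 (chr8:94771930-94772229, plus strand), Ccl8 (chr11:82114935-82115234, plus strand), Cxcl14 (chr13:56296502-56296801, minus strand), Ccl6 (chr11:83593038-83593337, minus strand) and Cxcl1 (chr5:90890995-90891294, plus strand) read as follows.
Cx3cl1: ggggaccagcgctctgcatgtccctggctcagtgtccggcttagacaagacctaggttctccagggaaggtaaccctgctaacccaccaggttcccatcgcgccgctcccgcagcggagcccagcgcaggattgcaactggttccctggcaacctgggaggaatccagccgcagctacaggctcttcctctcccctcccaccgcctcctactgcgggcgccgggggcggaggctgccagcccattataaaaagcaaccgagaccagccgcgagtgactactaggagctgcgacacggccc
Ccl8: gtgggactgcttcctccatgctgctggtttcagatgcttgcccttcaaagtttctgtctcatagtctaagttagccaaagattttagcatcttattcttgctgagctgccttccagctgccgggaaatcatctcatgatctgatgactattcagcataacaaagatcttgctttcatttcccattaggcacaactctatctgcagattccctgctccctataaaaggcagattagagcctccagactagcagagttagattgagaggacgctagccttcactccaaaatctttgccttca
Cxcl14: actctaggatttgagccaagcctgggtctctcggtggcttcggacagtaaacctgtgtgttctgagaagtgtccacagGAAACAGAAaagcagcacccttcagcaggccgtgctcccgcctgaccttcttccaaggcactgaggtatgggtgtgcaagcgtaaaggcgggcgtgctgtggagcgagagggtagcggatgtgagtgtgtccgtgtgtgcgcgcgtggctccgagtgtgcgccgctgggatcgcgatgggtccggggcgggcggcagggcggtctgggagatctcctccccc
Ccl6: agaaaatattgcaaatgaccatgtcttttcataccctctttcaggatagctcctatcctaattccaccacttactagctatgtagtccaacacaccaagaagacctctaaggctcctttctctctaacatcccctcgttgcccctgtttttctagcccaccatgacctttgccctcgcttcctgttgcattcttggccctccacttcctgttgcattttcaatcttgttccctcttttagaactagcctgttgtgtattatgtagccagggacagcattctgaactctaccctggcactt
Cxcl1: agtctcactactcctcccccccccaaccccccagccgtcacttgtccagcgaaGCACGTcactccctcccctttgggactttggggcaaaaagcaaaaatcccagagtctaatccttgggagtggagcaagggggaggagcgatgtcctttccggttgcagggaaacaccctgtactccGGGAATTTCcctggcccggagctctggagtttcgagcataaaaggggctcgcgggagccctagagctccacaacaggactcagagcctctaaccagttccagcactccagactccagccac

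The motifs searched on both strands were NF-kB (GGGANTTNC), AP-1 (TGANTCA), the hypoxia response element (ACGTGC) and the interferon response element (GAAANNGAA). The Cx3cl1, Ccl8 and Ccl6 windows held none of these letter strings, nor did that of Cxcl12. Cxcl14 held an interferon element string, GAAACAGAA, 172 to 164 bases before the start, as 8.56% of 32851 promoters hold one. Cxcl1 held an NF-kB string, GGGAATTTC, 71 to 63 bases before the start (in 4.26% of promoters) and a hypoxia element string, GCACGT, 197 to 192 bases before it (in 5.91%). Ccl9 held an AP-1 string, TGAATCA, 53 to 47 bases before the start (in 7.81%). The windows of Cx3cl1 (64.7%), Cxcl12 (64.7%), Cxcl14 (62.7%) and Cxcl1 (58.7%) were richer in G and C than the median promoter (52.7%). Those of Ccl8 (44.7%), Ccl6 (45.3%) and Ccl9 (43.7%) were poorer.

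Cxcl16, the other membrane-bound chemokine, is the ligand of Cxcr6 and also a scavenger receptor of oxidized lipoprotein. Its WT libraries ran from 12.4 through a median of 14.9 to 17.1 CPM and its KO libraries from 13.7 through 18.6 to 29.0 CPM. The other 4 KO libraries lay above the highest WT library, and KO replicates 5 and 6 lay within the WT range. The log2 fold change was 0.37 (SE 0.155, edgeR adjusted p = 0.0588; exact permutation p = 0.0693), so the difference did not pass the test, and it did pass without KO replicate 5 (edgeR adjusted p = 0.032) or KO replicate 6 (edgeR adjusted p = 0.0177). At the deposited coordinates, the 5′ end of the gene shares 45 bases with Zmynd15 on the other strand, which had 2.86 to 5.12 CPM in WT and 3.5 to 5.26 in KO. In a separate transcript annotation the shared part was larger, with 16.9% of the 50-base windows of Cxcl16 also in Zmynd15. Whether the counting used strand is not given in the sources used here, so reads in the shared part cannot be told apart.

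Cxcl12, the ligand of Cxcr4 that retains blood-forming and endothelial progenitor cells, was the most abundant of the 10 in every heart. WT libraries ran from 201 through a median of 232 to 284 CPM and KO libraries from 146 through 222 to 281, and the ranges overlapped. The log2 fold change was -0.12 (95% interval -0.42 to 0.19, edgeR adjusted p = 0.51), on 4041 to 8488 counts per library. Because the summed fibroblast markers were higher in KO and Cxcl12 itself did not pass, the ratio between them mainly restates the marker rise. Cxcl12 stood at 115 to 168 CPM per 1000 CPM of those markers in WT and at 43.7 to 114 in KO, without overlap. Per 1000 CPM of endothelial markers it stood at 123 to 171 CPM in WT and 79.6 to 165 in KO, with overlapping ranges (exact permutation p = 0.0541).

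Cxcl14 (MGP_C57BL6NJ_G0021000, chromosome 13, 57525211 to 57533115, minus strand), a chemokine of epithelia and stroma whose receptor is not settled, fell. WT hearts ran from 10.1 through 14.4 to 21.8 CPM and KO hearts from 5.70 through 6.82 to 9.64 CPM. The highest KO library, replicate 3, was just below the lowest WT library, replicate 2. The WT mean was 2.06 times that of KO by the fit, a log2 fold change of -1.04 (SE 0.17, 95% interval -1.42 to -0.66, edgeR adjusted p = 0.000108; exact permutation p = 0.00216). The adjusted p stayed under 0.05 with each library left out, and the absolute log2 fold change was no longer over 1 without WT replicate 1 (-0.92), KO replicate 2 (-1.0) or KO replicate 5 (-0.98).

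The fall of Cxcl14 ran opposite to the fibroblast markers. Of 8 fibroblast markers, 7 were higher in KO and Dpt was lower, beside 25.6% and 25.5% of all rows. The higher ones included Col3a1 (log2 fold change 1.43, edgeR adjusted p = 0.00328) and Dcn (0.63, edgeR adjusted p = 7.37e-06). None of the 8 was near 0, and they summed to 1510 to 1750 CPM in WT and 2360 to 4350 in KO. Per 1000 CPM of fibroblast markers, the median of Cxcl14 was 8.38 CPM in WT and 1.69 in KO. The ranges (6.23 to 12.9 and 1.54 to 3.92) did not overlap. The marker sum itself rose, from a median of 1700 CPM in WT to 3530 in KO, so this ratio partly restates the marker rise. Beside other marker sums the fall of the ratio was smaller than beside the fibroblast sum. The medians per 1000 CPM of macrophage markers were 40.5 CPM in WT and 17.7 in KO. For cardiomyocyte markers they were 0.278 and 0.159, and in both cases the ranges did not overlap.

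Cxcl1, a neutrophil attractant acting on Cxcr2, had the widest WT range of the 10 as a ratio of highest to lowest. WT replicates 1 to 6 had 3.51, 2.38, 1.57, 2.35, 0.566 and 0.191 CPM, the highest 18.4 times the lowest, and KO libraries had 0.326 to 1.65 CPM with a median of 1.00. The KO range lay inside the WT range, and the log2 fold change of -0.76 (95% interval -1.97 to 0.46, edgeR adjusted p = 0.267) did not pass the test.

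Ccl2, Ccl7 and Ccl8 belong to the monocyte chemoattractant genes, which sit together on chromosome 11 with Ccl11 and Ccl12. In the order Ccl2, Ccl7, Ccl11, Ccl12 and Ccl8, consecutive genes were 8.3, 10.3, 41.2 and 14.6 kb apart. Ccl2, the main Ccr2 ligand, ran from 0.723 through a median of 1.16 to 1.69 CPM in WT and from 0.722 through 0.833 to 1.44 in KO, with overlapping ranges and a log2 fold change of -0.26 (95% interval -0.88 to 0.36, edgeR adjusted p = 0.468). Ccl7, which acts on Ccr1, Ccr2 and Ccr3, had 0.115 to 1.21 CPM in WT and 0.288 to 0.707 in KO, and its log2 fold change was -0.46 (95% interval -1.42 to 0.51, edgeR adjusted p = 0.403). These genes rest on few counts, 19 to 40 per library for Ccl2 and 3 to 30 for Ccl7, and their intervals are correspondingly wide.

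Ccl8 (MGP_C57BL6NJ_G0019217, chromosome 11, 85865131 to 85866745, plus strand), a chemokine of resident macrophages, rose. The other 5 WT libraries had 0.324 to 0.423 CPM, WT replicate 4 had 1.35, and the KO libraries had 0.757 to 2.68 with a median of 1.20. Only KO replicates 1 and 4 exceeded the highest WT library, so the groups overlapped through WT replicate 4. The log2 fold change was 1.38 (SE 0.403, 95% interval 0.48 to 2.27, edgeR adjusted p = 0.00873; exact permutation p = 0.0108), on 8 to 34 counts per WT library and 21 to 78 per KO library. It was called with each library left out. Without WT replicate 4 it was 1.89 (edgeR adjusted p = 0.000371) and past both thresholds.

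Ccl6 and Ccl9 are rodent CC chemokines of myeloid cells that signal through Ccr1, 9.2 kb apart on chromosome 11. Ccl6 (MGP_C57BL6NJ_G0019246, chromosome 11, 87533203 to 87538392, minus strand) ran from 15.7 through a median of 18.4 to 27.5 CPM in WT and from 11.1 through 14.6 to 20.1 in KO, and the ranges overlapped. The log2 fold change was -0.41 (SE 0.159, edgeR adjusted p = 0.0422; exact permutation p = 0.0368). The call held in 4 of the 12 fits that left out a library (WT replicate 2, 3 or 5, or KO replicate 3) and was lost, at adjusted p up to 0.089, without any of the others. Without WT replicate 4, the highest library, the log2 fold change was -0.29 (edgeR adjusted p = 0.0866). Ccl9 had 7.69 to 15.2 CPM in WT and 7.01 to 14.3 in KO, with a log2 fold change of -0.13 (95% interval -0.58 to 0.32, edgeR adjusted p = 0.612).

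Macrophage markers were set beside these myeloid chemokines. Of 11 on the list, 10 were in the table and tested. Mrc1 was higher and Adgre1 and Csf1r were lower (25.6% and 25.5% of all rows), 7 did not pass, and none was near 0. Their sum was 307 to 423 CPM in WT and 305 to 451 in KO. Per 1000 CPM of macrophage markers, the median of Ccl8 was 1.07 CPM in WT and 3.35 in KO (exact permutation p = 0.00866). That of Ccl6 was 51.4 and 35.6 (exact permutation p = 0.0108), and that of Ccl9 was 31.0 and 27.6 (exact permutation p = 0.203). In each case the ranges overlapped, and these p-values were not adjusted. The 2 monocyte markers in the table summed to 0.0787 to 1.86 CPM in WT and 1.43 to 3.71 in KO, neutrophil markers to 4.49 to 16 and 6.29 to 19.2, and B cell markers to 9.35 to 19.4 and 4.24 to 9.03. T cell markers summed to 1.61 to 3.38 CPM in WT and 0.993 to 6.05 in KO, mast cell markers to 0.381 to 3.54 and 1.52 to 9.63 (Mcpt4 at 0 in every library), and mural cell markers to 1440 to 1680 and 1490 to 1990. The part of these cell types in the chemokine differences was not tested.

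**Figure D2:**
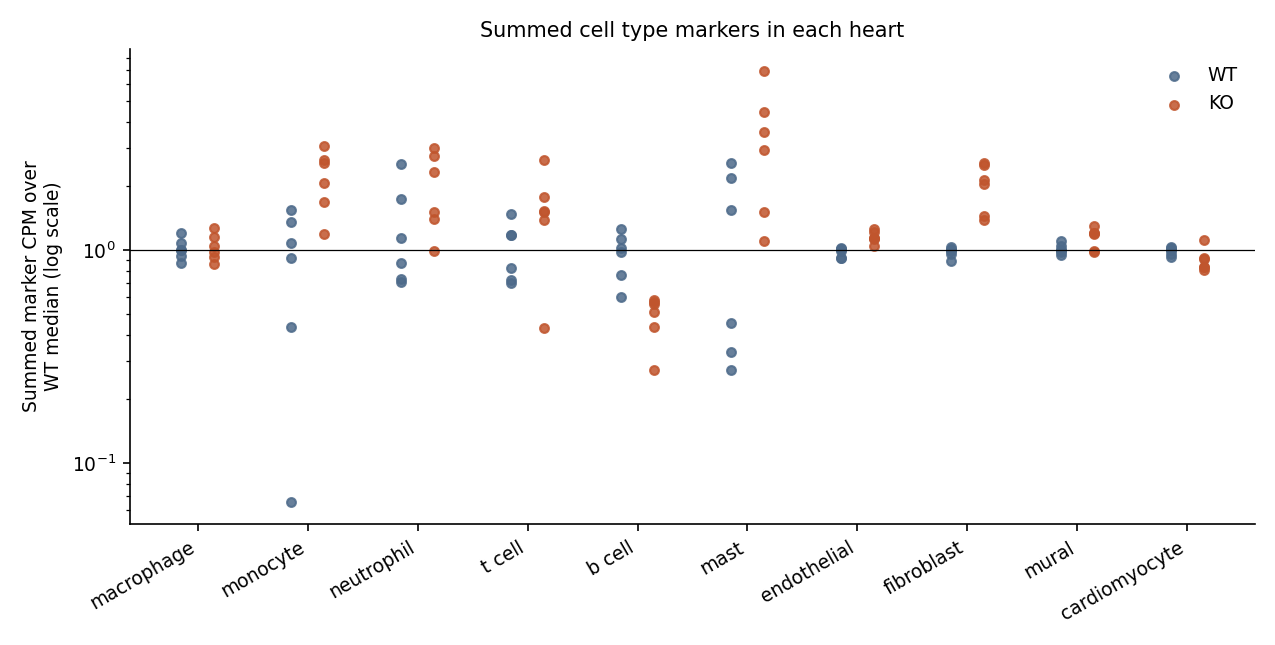
Summed CPM of marker lists in each heart over the median of the WT hearts (log axis); blue points are WT and red points KO, 6 each. Macrophage markers sat at 305 to 451 CPM in KO against 307 to 423 in WT, around the same level, whereas fibroblast markers (2360 to 4350 against 1510 to 1750) and endothelial markers (1700 to 2030 against 1490 to 1660) did not overlap between the groups.

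Levels of different genes were compared on the deposited FPKM, which is scaled by gene length. In WT hearts Cxcl12 led with a mean of 69.2 FPKM ± 7.78 (SD, n = 6), or 56.4% of the sum of the 10, followed by Ccl6 with 21.7 ± 4.84. Both were separated from the next gene in all 6 hearts without overlap of the ranges. Cxcl14 (8.31 ± 2.08), Cxcl16 (8.24 ± 1.08), Ccl9 (6.64 ± 1.59) and Cx3cl1 (4.58 ± 0.43) formed a middle group in which neighbours overlapped, and Cx3cl1 stood clear of the next gene. Cxcl1, Ccl2, Ccl8 and Ccl7 followed between 1.24 and 0.896 FPKM and were not separable from their neighbours by their ranges.

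In KO hearts Cxcl12 still led (64.0 ± 13.9 FPKM, 53.2% of the sum), and Ccl6 was next with 16.3 ± 3.5. Cx3cl1 was the third with 13.6 ± 1.81, above Cxcl16 (10.7 ± 3.23) in every KO heart, whereas in WT it was the sixth. Cxcl14 was the sixth in KO with 4.02 ± 0.769, and Ccl8, at 2.73 ± 1.45, was above Ccl2 (1.01 ± 0.288) in 5 of 6 hearts. From Ccl6 downwards every neighbouring pair overlapped in range. The sum over the 10 was 123 ± 13.9 FPKM in WT and 120 ± 21.9 in KO, which differed by less than the spread between libraries.

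**Figure D3:**
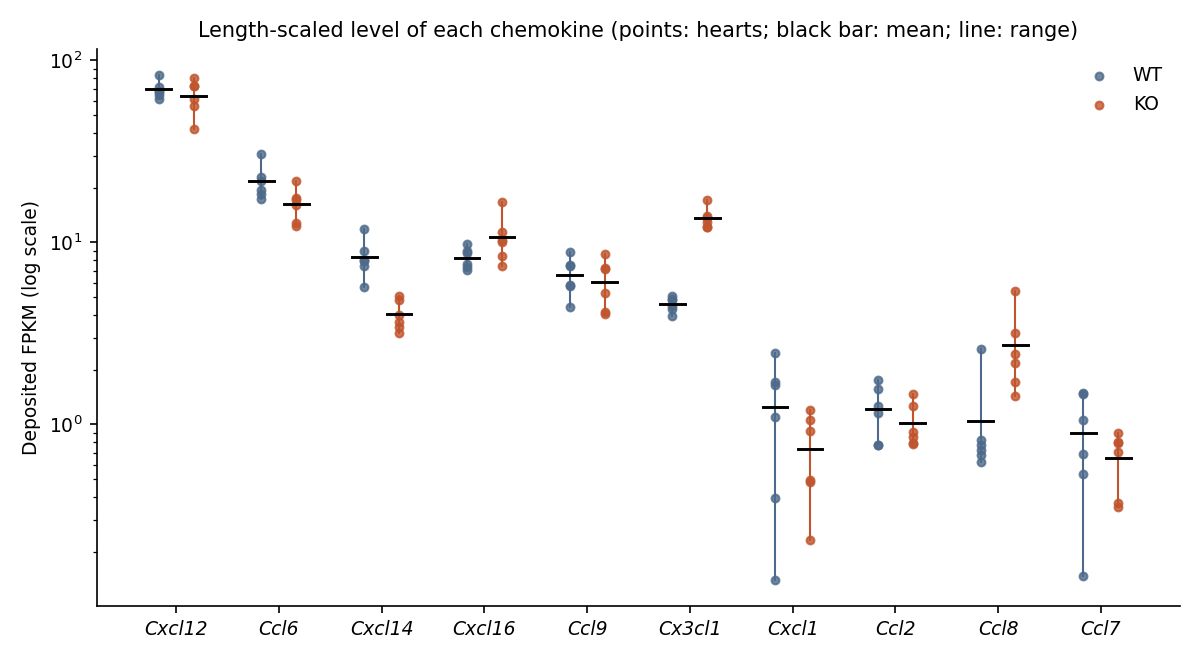
Deposited FPKM of the 10 chemokines (log axis), ordered by the WT mean; points are hearts (blue WT, red KO), black bars means and lines ranges of 6. Cxcl12 leads in both groups (means 69.2 and 64.0 FPKM), and Cx3cl1 moves from 4.58 to 13.6 while Cxcl14 moves from 8.31 to 4.02.

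After the genotype means were removed, the levels of the 10 were compared pairwise over the 12 hearts. By Pearson r, the closest of the 45 pairs were Ccl2 with Cxcl14 (Pearson r = 0.839, Spearman rho = 0.706), Cxcl16 with Cx3cl1 (r = 0.816, rho = 0.783), Ccl6 with Ccl9 (r = 0.775, rho = 0.776) and Ccl8 with Ccl9 (r = 0.767, rho = 0.797). Permutation p-values of r were 0.00181, 0.0034, 0.00505 and 0.00378, and 0.0567, 0.0567, 0.0568 and 0.0567 after Benjamini-Hochberg adjustment over the 45 pairs, so none passed. The permutation p-values of rho were 0.0177, 0.0054, 0.00941 and 0.00592, and 0.133, 0.0888, 0.106 and 0.0888 after adjustment. By rho the closest pair was Ccl6 with Ccl8 (rho = 0.846, permutation p = 0.00372, adjusted 0.0888; r = 0.692, permutation p = 0.028, adjusted 0.156), with r = 0.719 without its 2 farthest hearts, 0.937 within WT and 0.439 within KO. For the 4 pairs closest by r, without the 2 hearts farthest from the median of the first gene, r was 0.742, 0.682, 0.759 and 0.694. Each of those 4 pairs held the same sign within WT hearts (0.817, 0.708, 0.802 and 0.683) and within KO hearts (0.871, 0.888, 0.761 and 0.863).

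Among 12794 annotated genes, those most like Cx3cl1 over the 12 hearts by the same genotype-centred correlation were Cybb (r = 0.918), the catalytic subunit of the phagocyte NADPH oxidase, Cd72 (r = 0.879) and Pcdhb5 (r = 0.874). Those most like Cxcl14 were Ndufb3 (r = 0.932), a subunit of mitochondrial complex I, Oxr1 (r = 0.896) and Synj2 (r = 0.887). These are descriptions of the highest values in a search over the same 12 libraries.

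Of 30 other chemokine genes, 25 were in the table, 10 had enough counts to be tested, and 5 were called, 1 higher and 4 lower (25.6% and 25.5% of all rows). Ccl12, a mouse Ccr2 ligand between Ccl11 and Ccl8 on chromosome 11, rose from a median of 0.346 CPM in WT to 1.71 in KO, a log2 fold change of 1.96 (SE 0.484, edgeR adjusted p = 0.00295). WT replicate 6 had 0 counts of Ccl12, WT replicate 2 had 1.08 CPM, and KO libraries had 0.829 to 2.02. Its neighbour Ccl11, the eosinophil attractant eotaxin, fell, with 0.434 to 1.34 CPM in WT and at most 0.112 in KO. That is 145 counts summed over WT against 8 over KO, or 0.949 CPM (exact Poisson 95% interval 0.801 to 1.12, counting error only) against 0.0456 (0.0197 to 0.0898), with an edgeR adjusted p of 4.64e-06. Ccl24, another eosinophil attractant, fell from a median of 1.48 to 0.439 CPM (log2 fold change -2.12, edgeR adjusted p = 4.16e-05).

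Cxcl9, an interferon-induced ligand of Cxcr3, fell, with 6.83 to 9.74 CPM in WT and 3.14 to 4.67 in KO and no overlap (log2 fold change -1.13, SE 0.129, edgeR adjusted p = 1.62e-06). Ppbp, a platelet chemokine, was the fourth that fell (log2 fold change -1.79, edgeR adjusted p = 0.00765), on at most 30 counts per library. It was named after its values were seen. Ccl5, Ccl25, Cxcl5, Cxcl10 and Pf4 were tested and did not pass, with log2 fold changes from -0.80 to 0.11. The median log2 fold change of the 10 was -0.67.

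**Figure D4:**
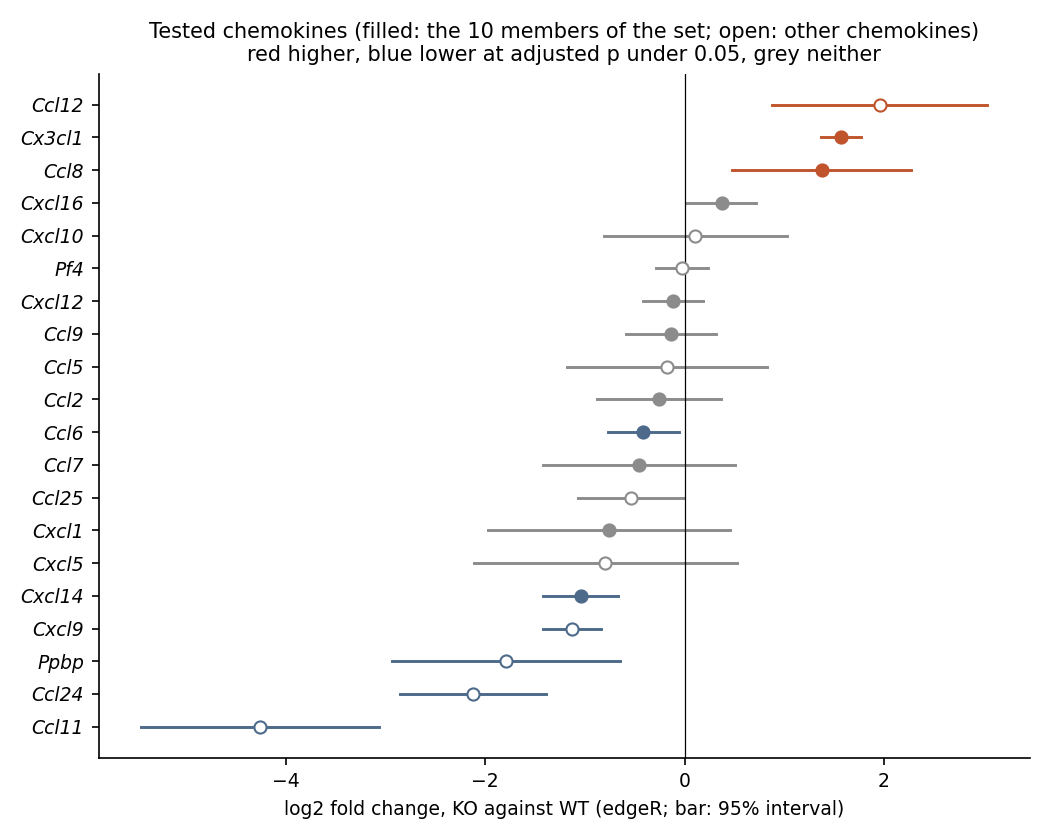
Log2 fold change of each tested chemokine, KO against WT, with its 95% interval (filled, the 10 described first; open, the 10 others); red is higher and blue lower at an adjusted p under 0.05, grey neither. The changes run from -4.26 for Ccl11 to 1.96 for Ccl12, with Cx3cl1 at 1.57 and Cxcl14 at -1.04.

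The 24 signalling and atypical receptors listed were all in the table, and 12 could be tested. Of these 12, 7 were higher and 2 lower, where 25.6% and 25.5% of all rows were. Of the signalling receptors, Ccr1, which binds Ccl6, Ccl7 and Ccl9, rose, with 0.202 to 1.34 CPM in WT and 2.77 to 6.36 in KO and no overlap (log2 fold change 2.15, SE 0.356, edgeR adjusted p = 0.000104). Xcr1, a receptor of cross-presenting dendritic cells, rose by 2.92 on the log2 scale (edgeR adjusted p = 2.62e-05), from 24 counts summed over WT to 212 over KO. Ccr2, the receptor of Ccl2, Ccl7 and Ccl12, rose by 0.94 (edgeR adjusted p = 0.00193), and Cxcr6, the receptor of Cxcl16, by 1.93 (edgeR adjusted p = 0.00737). Cxcr2, the receptor of Cxcl1, rose by 1.42 (edgeR adjusted p = 0.0291) but lost the call without WT replicate 3, 5 or 6 or KO replicate 3, 4 or 6 (adjusted p up to 0.0777).

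The receptors of Cx3cl1 and Cxcl12 did not pass. Cx3cr1, the receptor of Cx3cl1, averaged 5.96 ± 1.83 CPM in WT and 7.09 ± 1.5 in KO (log2 fold change 0.25, 95% interval -0.19 to 0.69, edgeR adjusted p = 0.309). Cxcr4, the signalling receptor of Cxcl12, averaged 11.5 ± 3.1 and 11.0 ± 2.37 CPM (log2 fold change -0.07, 95% interval -0.46 to 0.32, edgeR adjusted p = 0.756).

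Atypical receptors typically bind chemokines without classical G protein signalling. All 4 that were listed as atypical and tested were called. Of these, 2 were higher and 2 lower, beside 25.6% and 25.5% of all rows. Ackr3, which removes Cxcl12 from the tissue, fell from 111 ± 13.2 to 55.3 ± 4.25 CPM (log2 fold change -1.01, SE 0.074, edgeR adjusted p = 1.01e-08), with no KO library above 62.2 and no WT library below 95. Ccrl2, which presents chemerin, fell by 0.68 on the log2 scale (edgeR adjusted p = 3.37e-06). Ackr4, a scavenger of Ccl19, Ccl21 and Ccl25, rose from 11.0 ± 0.922 to 23.5 ± 5.47 CPM (edgeR adjusted p = 7.97e-06), and Ackr2, a scavenger of inflammatory CC chemokines, from 2.29 ± 0.676 to 4.64 ± 1.02 CPM (edgeR adjusted p = 0.00034).

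**Figure D5:**
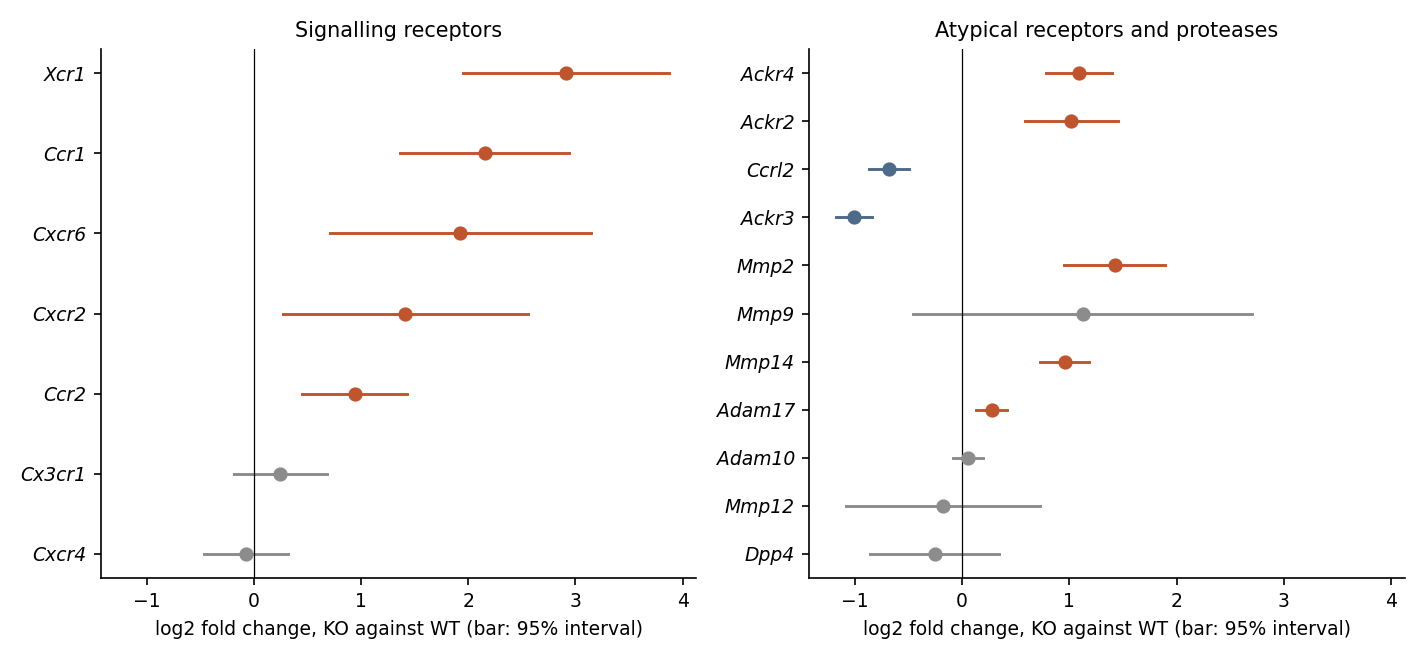
Log2 fold change, KO against WT, of the signalling receptors described here (left) and of atypical receptors and chemokine-cutting proteases (right), with 95% intervals; red is higher and blue lower at an adjusted p under 0.05, grey neither. Xcr1 (2.92) and Ccr1 (2.15) lead the signalling receptors, and the intervals of Cx3cr1 and Cxcr4 include 0.

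Of 7 proteases that cut chemokines, 3 were higher and none lower, beside 25.6% and 25.5% of all rows. Mmp2, which trims Cxcl12 and Ccl7, rose by 1.42 on the log2 scale (edgeR adjusted p = 0.000155) and Mmp14, its activator, by 0.96 (edgeR adjusted p = 1.91e-06). Adam17, a sheddase of Cx3cl1, rose from 45 ± 2.76 to 54.5 ± 5.0 CPM (log2 fold change 0.28, edgeR adjusted p = 0.0016), and Adam10, the sheddase that cuts Cx3cl1 and Cxcl16 without stimulation, had 85.7 ± 5.65 and 88.9 ± 8.29 CPM (log2 fold change 0.05, edgeR adjusted p = 0.506). Shedding itself was not measured.

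Among 16 tested genes of the cytokine and NF-kB pathways that control chemokine transcription, inhibitors of NF-kB included, 5 were higher and 3 lower, with none past both thresholds. These shares stand beside 25.6% higher and 25.5% lower over all rows. Tnfrsf1a, the main TNF receptor, rose by 0.57 on the log2 scale (edgeR adjusted p = 1.76e-07), Il1r1, the IL-1 receptor, by 0.65 (edgeR adjusted p = 2.01e-05), and Nfkb1 by 0.39 (edgeR adjusted p = 2.09e-05). Il6ra (0.51) and Tnfrsf1b (0.33) rose as well, and the 3 lower were Myd88 (-0.34), Rel (-0.33) and Nfkb2 (-0.16), the last with an edgeR adjusted p of 0.0353 that was lost without WT replicate 2, 3 or 4 or KO replicate 1, 2, 3 or 5. The cytokines themselves were scarce: Tnf, Il1a, Il6, Il18 and Ifng had too few counts to be tested, Il6 with 3 counts summed over WT and 69 over KO, and Il1b had a log2 fold change of -0.90 (edgeR adjusted p = 0.0848) that passed without WT replicate 6 (edgeR adjusted p = 0.043) or KO replicate 3 (edgeR adjusted p = 0.0154). These genes from Il6ra to Il1b, and Ccr2, Cxcr2, Cxcr6, Cx3cr1 and Cxcr4, were named after their values were seen.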

How the data were processed

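The members and gene lists were chosen with earlier results of these data known. Poly-A mRNA of 6 WT and 6 KO ventricular walls was sequenced. The authors counted reads per gene with HTSeq and deposited raw counts and FPKM, which they computed from counts, gene length and library size; HISAT2 2.0.5 and mm10 appear in the submitters' processing notes. The authors also deposited mean normalized counts of each group, a signal not used here, and their own comparison (fold changes and p-values), which was left out. Identifiers are of the C57BL/6NJ assembly: only 2 of 18700 symbols start within 1000 bases of their GRCm38 position, so gene coordinates are those of the table, and the promoter windows, from RefSeq on GRCm38.p6, are matched by symbol alone. The deposited FPKM were 1.0753 to 1.1078 times (library medians) those recomputed from count, length and total.

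The counts were filtered (filterByExpr), scaled (TMM) and tested (quasi-likelihood, robust dispersions) with edgeR 4.0.16 in R 4.3.3, adjusted by Benjamini-Hochberg over 17155 rows. The 95% intervals use the SE and are approximate. Intervals cover counting error or the spread between libraries, and p-values the spread between these mice. Simulated counts of 17038 genes with 200 changed 2-fold gave 200 recovered and 7 false calls. The changed genes were drawn only from genes with higher counts, and all genes had the same dispersion. The recovery therefore does not cover genes with few or widely spread counts, such as Ccl2, Ccl7, Ccl8 and Cxcl1. The chi-square per degree of freedom between libraries of a genotype was never below 6.99, so none was counted as a repeat. All 10 chemokines, and of each other list the genes past both thresholds and the 3 with the smallest p under the threshold, were named, with any others said to be named after their values were seen; 1 tested receptor is not reported here. Alternatives were scaling by library size only, by upper quartile or by DESeq2 size factors, the tests of DESeq2 1.42.0 and limma-voom (limma 3.58.1), edgeR without robust dispersions, other filters on low counts, no unannotated loci, a block on the replicate number, and each library left out. Of the transcripts' 50-base windows, 16.9% of Cxcl16 (Zmynd15) and 1.97% of Ccl9 occur in other genes, and none in the other 8 chemokines.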

Additional observations from a re-analysis of the deposited data

Results flagged for a closer look

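In 6 of 76 groups of 6 libraries, 1 library stood apart from the rest by Dixon's criterion at the 95% level, which chance alone flags in about 1 group in 20 (3.8 of 76). WT replicate 4 stood apart in Ccl8, with 1.35 CPM against 0.324 to 0.423 in the other WT hearts, and in Ccl6, with 27.5 CPM against 15.7 to 19.7. WT replicate 2 had 1.08 CPM of Ccl12 against 0 to 0.364 in the others. KO replicate 1 had 0.128 CPM of Ccl24 against 0.396 to 0.487, and KO replicate 3 had 6.36 CPM of Ccr1 against 2.77 to 3.4. WT replicate 3 had 21.1 CPM of Rel against 16.1 to 18. The cause was not tested.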

How the results depend on the processing

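The calls of Cx3cl1 and Cxcl14 held in all 10 other fits and with each of the 12 libraries left out. With at least 1 CPM required in 6 libraries, Ccl8 and Ccl7 were not tested, so 1 chemokine was higher in place of 2, and 2 of 5 tested other chemokines were called in place of 5 of 10. With no filter on low counts, 1 of the 10 was lower, since Ccl6 was not called (edgeR adjusted p = 0.0842). That fit called 6 of 22 tested other chemokines and 11 of 23 tested receptors. Of its 27883 rows, 4626 were higher and 4507 lower. Leaving out each library gave 1 to 2 lower chemokines and 1 to 3 past both thresholds. Without each library in turn, Cxcr4 ran from -0.179 to 0.052 in log2 fold change and changed sign without WT replicate 6 (edgeR adjusted p = 0.812). Without WT replicate 4, 6 other chemokines were called. Cxcl16 passed with the DESeq2 test (adjusted p = 0.0429) and edgeR without robust dispersions (adjusted p = 0.0497). The replicate numbers do not pair the hearts: deviations of same-numbered libraries correlated at -0.1623 to 0.0243. Under the replicate block, 4123 rows were higher and 4110 lower, 2 of the 10 chemokines were higher, 2 lower and 3 past both thresholds; Cxcr2 (edgeR adjusted p = 0.0841) and Nfkb2 (edgeR adjusted p = 0.0654) were no longer called. Cxcr2 was also lost with limma-voom (adjusted p = 0.0875), and Nfkb2 with library size only (edgeR adjusted p = 0.0511) and with no filter (edgeR adjusted p = 0.0754). Ccl2, Ccl7, Ccl8 and the cytokines rest on few counts per library.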
